A study of Homo sapiens with 2 samples.

Results

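Expression of 10 genes of bone morphogenetic protein (BMP) signalling was described in Tu212 cells, an epithelial-derived line in use for work on head and neck squamous cell carcinoma. The genes were the ligand genes BMP2, BMP4 and BMP7, the target genes ID1, ID2, ID3 and ID4, the inhibitory SMAD genes SMAD6 and SMAD7, and the decoy receptor gene BAMBI. They were taken by symbol, each from a single entry, out of 58302 genes in a table of read counts. The list was chosen by earlier results from the counts of these same libraries, in which ID2 and BMP2 had been lower with PRMT5 overexpression, so the ratios are given as a description and without a test. One library came from cells given the empty pEZ vector and the other from cells given pEZ carrying PRMT5, each for 48 h, and nothing else in the labels separates them. The comparison asks which signalling genes differ when PRMT5 is overexpressed in this line. Each group has 1 library, so no difference below could be checked on replicates, and the values describe these libraries. The promoter that drives PRMT5 in the plasmid and the share of cells that took it up are not stated in the labels.

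BMPs are secreted ligands of the TGF-beta family. They bind paired serine/threonine kinase receptors, which phosphorylate SMAD1, SMAD5 and SMAD9, and these join SMAD4 and enter the nucleus. The ID genes are their best known targets. ID proteins have a helix-loop-helix domain without the basic stretch that contacts DNA, so they pair with E proteins such as TCF3 and hold them off DNA, and in stratified epithelia they are linked to the undifferentiated, dividing state. SMAD6 and SMAD7 are induced by the same pathway and feed back on the receptors, SMAD6 mainly on BMP signalling and SMAD7 also on TGF-beta. BAMBI resembles a type I receptor that lacks the kinase.

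Reads assigned to genes numbered 14119997 in the vector control library and 19908258 with PRMT5 overexpression. PRMT5 was at 145 CPM (read counts scaled to the library size by TMM) and at 293 CPM, respectively, 2.02-fold higher in the library labelled as overexpressing it, and reads of the plasmid and of the chromosomal gene cannot be told apart. All 10 squamous epithelial markers looked at, among them KRT5 and TP63, averaged 50 reads or more, with a summed level of 13354.5 and 14331.4 CPM. Fibroblast markers summed to 99.4 and 82.2 CPM, nearly all of it COL1A1. Of the 6 fibroblast markers that reached 10 reads in either library, 3 were lower by 2-fold or more with PRMT5 overexpression, at 26 and 7 reads for COL1A2, 11 and 2 for COL3A1 and 12 and 0 for DCN, where 1.94% of all genes were. These 3 reached 10 reads only in the vector control, where they were higher, so the minimum favours that direction. Endothelial markers summed to 6.03 and 4.57 CPM, with CDH5 and KDR at 0 in both libraries. Leukocyte markers summed to 21.6 and 17.0 CPM, most of it CD68, which carcinoma cells may express too. Other leukocyte markers had few reads, among them 12 and 3 for ITGAM, 6 and 0 for CD3E, 0 and 4 for PTPRC and 0 and 3 for LYZ. The part of these markers in the results below was not tested. In bulk RNA, fewer cells of a type and less RNA per cell cannot be told apart.

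ID2 was the ID gene set apart between the libraries, so the 250 bases before the RefSeq transcript start of each ID gene are shown (GRCh38.p14, 5′ to 3′ on the strand of the gene). Capitals mark every match, on either strand, of 5 motifs. These were GGCGCC, the GC-rich element bound by BMP-activated SMADs, GTCTAGAC, the palindromic SMAD element, TATAAA, the TATA box, CCAAT, the box bound by NF-Y, and CACGTG, an E box. On the other strand the NF-Y box reads ATTGG.

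ID1, chr20:31605039-31605288, plus strand: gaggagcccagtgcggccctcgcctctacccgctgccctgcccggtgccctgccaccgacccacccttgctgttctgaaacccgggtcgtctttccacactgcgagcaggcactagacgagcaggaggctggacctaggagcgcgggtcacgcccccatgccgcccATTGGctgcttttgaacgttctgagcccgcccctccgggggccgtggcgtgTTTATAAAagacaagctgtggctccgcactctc
ID2, chr2:8681806-8682055, plus strand: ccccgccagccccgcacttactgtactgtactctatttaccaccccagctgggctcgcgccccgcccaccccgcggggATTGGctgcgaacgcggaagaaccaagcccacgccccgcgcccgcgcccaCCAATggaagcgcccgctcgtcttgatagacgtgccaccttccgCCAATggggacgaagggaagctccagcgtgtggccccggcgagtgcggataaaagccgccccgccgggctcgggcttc
ID3, chr1:23559502-23559751, minus strand: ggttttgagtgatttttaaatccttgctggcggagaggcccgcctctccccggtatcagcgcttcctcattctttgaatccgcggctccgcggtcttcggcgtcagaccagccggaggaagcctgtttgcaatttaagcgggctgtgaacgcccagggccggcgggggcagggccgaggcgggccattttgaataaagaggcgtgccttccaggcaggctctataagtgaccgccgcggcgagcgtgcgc
ID4, chr6:19837120-19837369, plus strand: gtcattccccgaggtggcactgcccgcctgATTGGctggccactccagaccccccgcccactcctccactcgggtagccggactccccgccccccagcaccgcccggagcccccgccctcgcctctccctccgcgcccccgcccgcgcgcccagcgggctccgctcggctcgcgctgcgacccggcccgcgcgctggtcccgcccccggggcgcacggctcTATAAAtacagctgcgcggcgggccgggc

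The 4 windows differ in their core motifs. The ID2 window held 3 CCAAT matches, whose first letters lie 172, 122 and 78 bases before the start, and no TATAAA. ID1 held TATAAA on both strands, in 1 overlapping stretch, with the first letters of the matches 33 and 31 bases before the start, and 1 CCAAT match. ID4 held 1 match of each, and ID3 held none of the 5 motifs. CCAAT occurs in 32.0% and TATAAA in 10.7% of 35116 promoter windows of this length. None of the ID windows held GGCGCC or GTCTAGAC. GTCTAGAC, which occurs in 0.182% of windows, was found once among the members, 12 bases before the start of SMAD6, and GGCGCC, present in 16.4% of windows, was found in the BAMBI and BMP4 windows only, among 8 members with a window in the RefSeq table. A match is a string of letters and not a measured binding site. Bases outside these windows were not searched, so a motif missing here may lie elsewhere near the gene.

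Among the ID genes, ID2 was far lower in the PRMT5 overexpression library and ID1 and ID3 were close to equal. ID2 had 326 reads in the vector control and 152 in the deeper PRMT5 overexpression library, or 22.9 CPM and 7.71 CPM. This is 2.95-fold lower, a log2 ratio of -1.56. The 95% Clopper-Pearson interval, which covers counting error only and is called the counting interval below, ran from -1.86 to -1.29. ID2 was the sole member lower by 2-fold or more. That was so for 1.94% of the 17777 genes that reached 10 reads in either library, and for 0.806% of the 13282 genes that averaged 50 reads or more. Among the 4242 genes whose mean reads lay within 2-fold of those of ID2, 15 had a log2 ratio at or below that of ID2, itself included.

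ID1 and ID3 were the most abundant members. ID1 was at 96.8 CPM in the vector control and 86.6 CPM with PRMT5 overexpression, from 1380 and 1707 reads. The log2 ratio was -0.16 (interval -0.26 to -0.06). Of the 4229 genes within 2-fold of its mean reads, 13.1% were at or below that ratio. ID3 was at 118 CPM and 111 CPM, from 1678 and 2187 reads, with a log2 ratio of -0.08 (interval -0.18 to 0.01). ID4, which is the ID gene with the fewest reads here, was at 4.77 CPM and 3.86 CPM, from 68 and 76 reads. The log2 ratio was -0.30, and the interval, -0.80 to 0.19, allows a difference in either direction.

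Shares within a library do not depend on how the libraries were scaled. ID2 took 9.44% of all ID gene reads in the vector control (interval 8.49% to 10.5%) and 3.69% with PRMT5 overexpression (3.13% to 4.31%), so that the intervals lie apart. The shares of ID1 were 40.0% and 41.4%, those of ID4 1.97% and 1.84%, and in both genes the intervals overlap. The share of ID3 was 48.6% (46.9% to 50.3%) and 53.1% (51.5% to 54.6%), the 1 other gene whose intervals lie apart, in a sum in which a lower share of ID2 raises the others. Set directly against ID3, the log2 ratio of ID2 was lower by 1.48, with a counting interval for that difference from -1.79 to -1.18. The log2 ratio of ID1 was higher than that of ID2 by 1.41, from 1.11 to 1.71, and ID2 differed from ID4 by -1.26, from -1.83 to -0.69. The 3 pairs without ID2 had intervals that hold 0, the widest being -0.36 to 0.65 for ID1 against ID4. Without ID2, the summed ID reads stood at 219 and 201 CPM, a log2 ratio of -0.12. ID2 had been seen to be lower in these counts before the list was chosen, so the shares and differences are a description and not a test.

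**Figure D1:**
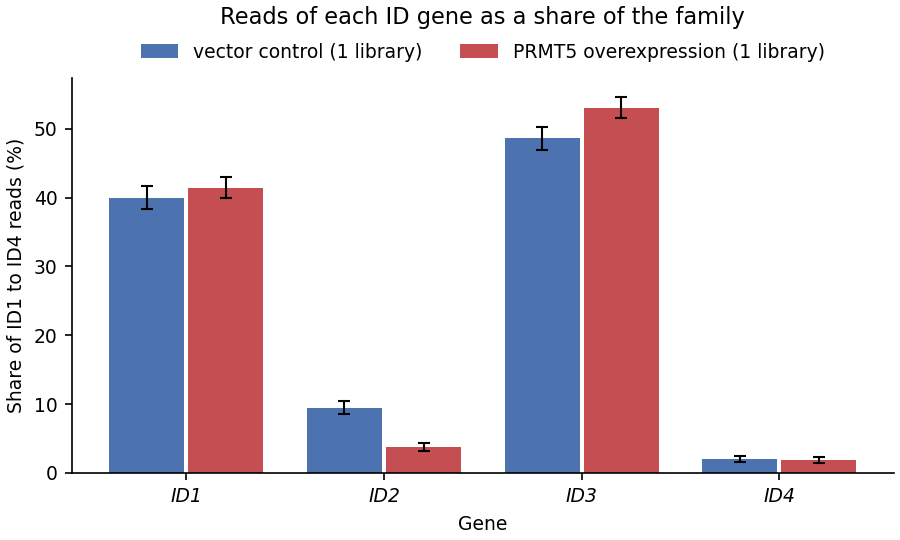
Reads of ID1, ID2, ID3 and ID4 as a percentage of their sum in the vector control and PRMT5 overexpression libraries (1 library each; error bars, 95% Clopper-Pearson intervals, counting error only). ID2 stands at 9.44% and 3.69%, while the bars of ID1 and of ID4 overlap within their intervals.

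ID2 (ENSG00000115738) lies on the plus strand of chromosome 2 from 8678845 to 8684453 in GRCh38. Its annotated exons share 38 bases with the antisense gene ID2-AS1, which had 11 reads in each library, and the labels do not say whether counting used strand. With the reads of ID2-AS1 added, the log2 ratio of ID2 was -1.51. Of 200 stretches of 50 bases along its longest transcript, 2 also occur in a transcript of another gene, AC104849.1. The 2 genes within 500 kb that averaged 50 reads or more were KIDINS220 at -0.21 and MBOAT2 at -0.17, both closer to 0 than ID2. MBOAT1, a relative of MBOAT2 that lies 261 kb from ID4, was at -0.49, with 197 and 193 reads.

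Of the ligand genes among the members, BMP2 and BMP7 were lower with PRMT5 overexpression, and BMP4 was hardly read. BMP ligand genes outside the members are given further below. BMP2, a ligand best known for inducing bone, had 227 reads in the vector control and 184 in the other library, or 15.9 and 9.33 CPM. It was 1.70-fold lower, at a log2 ratio of -0.77 (interval -1.06 to -0.48). BMP2 and ID2 were the 2 members lower by 1.5-fold or more, where 5.33% of all genes and 2.42% of those that averaged 50 reads or more were. Of 3977 genes of like depth, 1.81% were at or below BMP2.

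BMP7, a ligand that also signals through ACVR1, was at 32.2 CPM and 22.9 CPM, from 459 and 452 reads. The log2 ratio was -0.49 (interval -0.68 to -0.30), and 3.02% of 5439 genes of like depth were at or below it. BMP4, the closest relative of BMP2, was hardly read, with 3 reads in the vector control and 12 with PRMT5 overexpression. The log2 ratio was 1.31, and the interval, -0.36 to 4.0, holds 0. BMP4 was the sole member higher by 1.5-fold or more and by 2-fold or more, where 7.06% and 2.9% of all genes were. Among genes within 2-fold of its mean reads, 8.52% were at or above its ratio.

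Summed, the 3 ligand genes had 689 and 648 reads, or 48.3 and 32.9 CPM, a log2 ratio of -0.55 (interval -0.71 to -0.40). BMP2 made up 32.9% of these reads in the vector control (29.4% to 36.6%) and 28.4% in the other library (24.95% to 32.0%). The intervals overlap, and the log2 ratios of BMP2 and BMP7 differed by -0.28 (interval -0.63 to 0.07). BMP2, BMP7 and ID1 lie on chromosome 20. BMP2 (ENSG00000125845) spans 6767664 to 6780280 and has no other gene that averaged 50 reads or more within 500 kb. BMP7 (ENSG00000101144) spans 57168748 to 57266629, and PMEPA1, a TGF-beta induced inhibitor of SMAD signalling that lies 382 kb away, was at -0.40. The other neighbours of BMP7 at that depth, RAE1, RBM38 and NKILA, were at 0.20, 0.14 and -0.29.

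**Figure D2:**
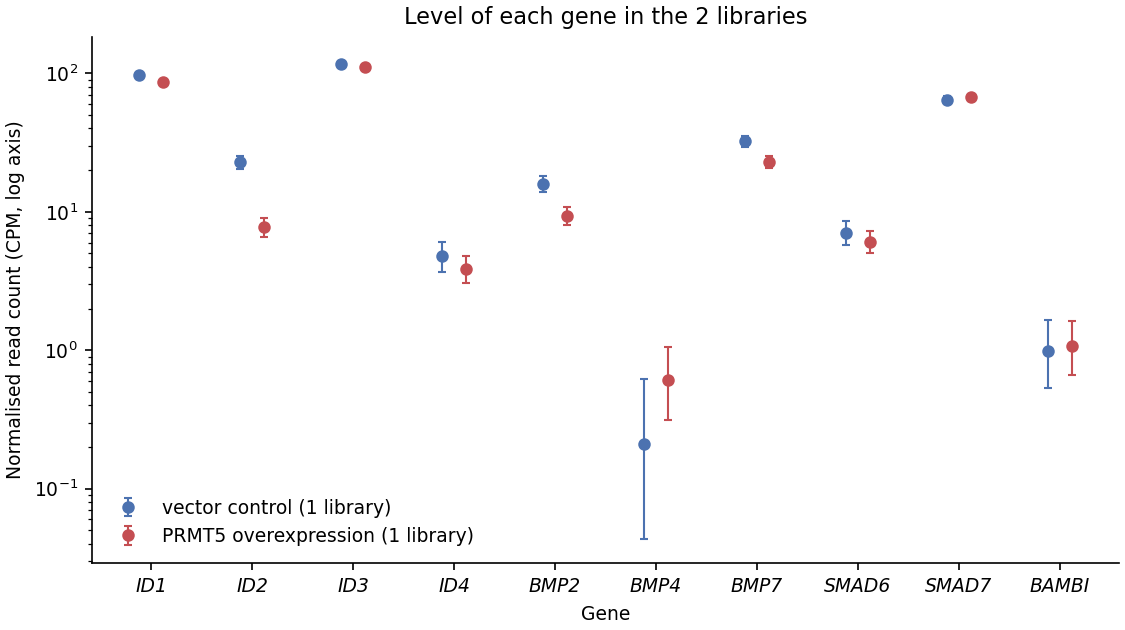
Level of each of the 10 genes in CPM (log axis) in the vector control and PRMT5 overexpression libraries (points, 1 library each; bars, exact 95% Poisson intervals, counting error only). ID1, ID2, BMP2 and BMP7 show intervals that lie apart, narrowly for ID1, with the lower level in the PRMT5 overexpression library, whereas BMP4 and BAMBI sit near or under 1 CPM with wide intervals.

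The feedback inhibitors had counting intervals that hold 0. SMAD7 was at 64.3 CPM and 67.1 CPM, from 917 and 1322 reads, with a log2 ratio of 0.06 (interval -0.06 to 0.18). SMAD6 was at 7.08 CPM and 6.09 CPM, from 101 and 120 reads, with a log2 ratio of -0.22 (interval -0.61 to 0.18). Their difference from each other was -0.28, from -0.69 to 0.14. BAMBI had 14 and 21 reads, 0.982 and 1.07 CPM, with a log2 ratio of 0.11 and too few reads to tell a 2-fold difference from none (interval -0.93 to 1.21). No other annotated gene that reached 10 reads in either library overlaps the exons of SMAD6 or SMAD7, and genes with fewer reads were not looked at. The table ends SMAD7 at 48950711 on chromosome 18 where GENCODE release 29 ends it at 48952052. The other 9 members have the same start and end in both.

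Over the 10 genes, 7 had a log2 ratio below 0, where 49.6% of all genes did, and the median was -0.19 against 0.00 for all genes. All 10 reached 10 reads in either library, BMP4 only through the library in which it was higher, and 8 averaged 50 reads or more. Of those 8, 7 were below 0, where 51.2% of genes of that depth were, with a median of -0.26 against -0.01. The counting interval lay wholly below 0 for 4 members, ID1, ID2, BMP2 and BMP7, and wholly above 0 for none. It lay wholly below 0 for 14.3% of all genes and for 17.3% of those that averaged 50 reads or more, and wholly above 0 for 14.3% and 17.1%. ID2 and BMP2 had been seen to be lower before the list was chosen. Both enter the member counts and medians above, so the shares of all genes are background and not a test.

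**Figure D3:**
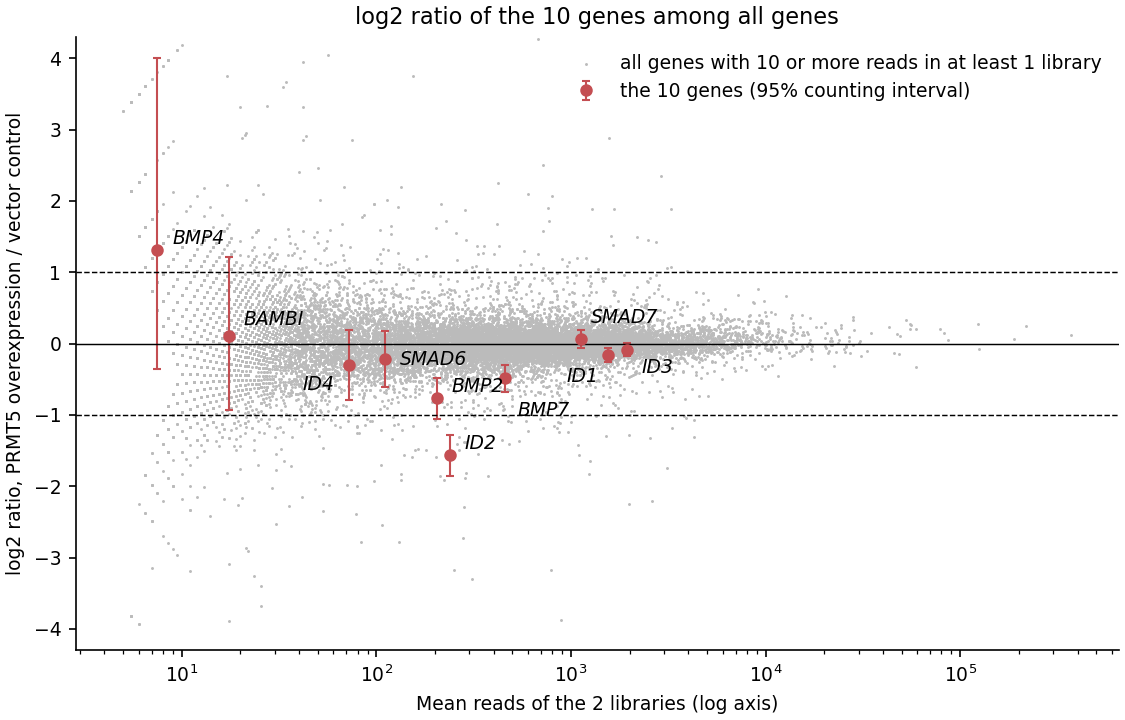
log2 ratio (PRMT5 overexpression over vector control) against mean reads (log axis) for 17777 genes (grey, 20 lie beyond the axis) and for the 10 genes (red, with 95% counting intervals). The dashed lines mark 2-fold, ID2 lies below the lower one with its whole interval, and the grey cloud widens to the left, where BMP4 and BAMBI lie.

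Levels were compared between genes after division by the merged exon length in GENCODE release 29, which assumes that the annotated exons are used. In the vector control the order was ID1 at 78.5 CPM per kb, ID3 at 65.5, SMAD7 at 12.8, ID2 at 10.4, BMP7 at 5.94, BMP2 at 4.42, ID4 at 2.03, SMAD6 at 0.827, BAMBI at 0.424 and BMP4 at 0.0683. Only SMAD6 and BAMBI, among neighbours in this order, had overlapping Poisson intervals. In the PRMT5 overexpression library ID2 came after BMP7, at 3.50 against 4.23 CPM per kb, and the other 8 genes kept their rank. There the intervals of BMP7 and ID2, of ID2 and BMP2, of SMAD6 and BAMBI and of BAMBI and BMP4 overlapped.

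The receptors and SMADs that act between the ligands and the ID genes had log2 ratios between -0.23 and 0.23 where they averaged 50 reads or more. Of 9 BMP receptor and coreceptor genes that reached 10 reads, 4 were below 0, where 49.6% of all genes were. Their median was 0.05 against 0.00 for all genes. The type I receptor gene BMPR1A was at 40.8 and 43.5 CPM, with a log2 ratio of 0.09, and the type II receptor gene BMPR2 at 87.2 and 85.1 CPM, with -0.04. BMPR1B and ENG were the 2 higher by 1.5-fold or more, where 7.06% of all genes were, with 3 and 11 reads and 8 and 23 reads, and their intervals hold 0. Both reached 10 reads only in the PRMT5 overexpression library. ENG was at 0.03 once summed with AL162586.1, whose exons overlap it. The 6 receptor-regulated and common SMAD genes lay between -0.19 and 0.23. SMAD1 was at 0.09 (interval -0.11 to 0.29), SMAD5 at -0.18 (-0.26 to -0.11) and the shared partner SMAD4 at 0.23 (0.07 to 0.39). The coreceptor gene RGMB was at -0.23 (-0.41 to -0.05). The intervals of SMAD5, SMAD4 and RGMB thus exclude 0, with SMAD4 higher and the others lower.

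Among the pathway genes outside the 10 that averaged 50 reads or more, ACVR1B and GDF15 lay farthest below 0. ACVR1B, the activin type I receptor, had 759 reads in the vector control and 446 in the PRMT5 overexpression library, or 53.2 and 22.6 CPM. It was 2.35-fold lower, at a log2 ratio of -1.23 (interval -1.41 to -1.06). The other 4 receptor genes of this arm lay between -0.43, for TGFBR1, and 0.18, for TGFBR3. Among 8 measured TGF-beta and activin ligand genes, 2 were below 0, where 49.6% of all genes were, and 6 above, with a median of 0.20. INHBE, an inhibin beta subunit, was at -0.64 (interval -0.99 to -0.29). TGFB2 and INHBB were at 0.98 and 0.74 from 4 and 12 and from 4 and 10 reads, which reached 10 only in the PRMT5 overexpression library. TGFB1 was at 0.35, or 0.19 once summed with HNRNPUL1, whose exons overlap it.

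GDF15, a stress-induced member of the ligand family that signals through GFRAL and not through BMP receptors, had 103 and 59 reads, or 7.22 and 2.99 CPM. The log2 ratio was -1.25 (interval -1.76 to -0.80). Of the 7 measured BMP and GDF ligand genes outside the members, 3 were below 0, where 49.6% of all genes were, and 4 above. Their median was 0.06 against 0.00 for all genes. Besides GDF15, AMH, with 25 and 20 reads, was the other of these lower by 1.5-fold or more, where 5.33% of all genes were. Its interval, -1.71 to 0.12, holds 0. GDF11 was at 0.06, or -0.14 once summed with SARNP and AC023055.1, whose exons overlap it. BMP8B was at 0.08, or 0.09 once summed with PPIE. BMP6, with 23 and 41 reads, was at 0.36, and BMP8A, with 26 and 48 reads, at 0.41. Both of these intervals hold 0. BMP8A was at 0.19 once summed with PPIEL, whose exons overlap it.

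Secreted antagonists, which bind the ligands outside the cell, had a median of -0.12 over 9 measured genes. Of these, 6 were below 0, where 49.6% of all genes were, and 3 above. FSTL3, which binds activins, was at -0.90 (interval -1.30 to -0.51), from 130 and 96 reads. NBL1, a BMP antagonist, was at -0.72, but was at -0.21 once summed with MINOS1 and MINOS1-NBL1, which share its exons. SOST, with 197 and 374 reads, was higher, at 0.46 (interval 0.20 to 0.71). SOSTDC1, with 34 and 71 reads, was at 0.58 (interval -0.01 to 1.23). DAND5 was at 1.75 (interval -0.05 to 5.32), with 2 reads in the vector control and 12 in the other library, through which alone it reached 10. Follistatin (FST) was at 82.3 and 75.7 CPM, with a log2 ratio of -0.12, and NOG, CHRD and GREM1 did not reach 10 reads in either library.

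The other target genes held no gene lower by as much as ID2. Of 11 measured BMP target genes beyond the members, 4 were below 0, where 49.6% of all genes were, with a median of 0.02 against 0.00. By 1.5-fold or more, 0 were lower and 2 were higher, where 5.33% and 7.06% of all genes were. MSX2, a homeobox gene induced by BMPs, was higher, with 28 and 84 reads and a log2 ratio of 1.09 (interval 0.49 to 1.79). MSX1, with 14 and 32 reads, was at 0.69, and its interval, -0.22 to 1.75, holds 0. DLX5, the lowest of these genes, had 737 and 775 reads and was at -0.39 (interval -0.54 to -0.25). HES1 was at -0.14 and JUNB at -0.01. Among 14 TGF-beta target genes, 10 were below 0, where 49.6% of all genes were, with a median of -0.13. Of these genes, JUNB, SKIL, PMEPA1 and CDKN2B are also in another list. TPM1, an actin-binding tropomyosin at 0.60, was the sole one apart by 1.5-fold or more. By that much, 5.33% of all genes were lower and 7.06% higher. TPM1 was at 0.55 once summed with TPM1-AS. The E protein genes TCF3, TCF4 and TCF12, whose products ID proteins bind, were at 0.11, 0.09 and 0.01. The 4 cell cycle inhibitor genes listed with them, CDKN2A, CDKN1A, CDKN2B and CDKN1C, were at 0.04, -0.15, -0.41 and -0.47, and the median of these 7 genes was 0.01. The 19 measured intracellular regulators of SMADs lay between PMEPA1 at -0.40 and TGIF1 at 0.26. They held 0 genes at 1.5-fold or more, where 5.33% of all genes were lower and 7.06% higher.

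Over all lists without the 10 genes, 76 genes averaged 50 reads or more. Of these, 5 were lower by 1.5-fold or more, where 2.42% of all genes of that depth were, and 2 were higher, where 2.7% were. The median of the 91 genes that reached 10 reads in either library was 0.00, and 44 of them were below 0. Nothing particular to the pathway is read from these counts.

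**Figure D4:**
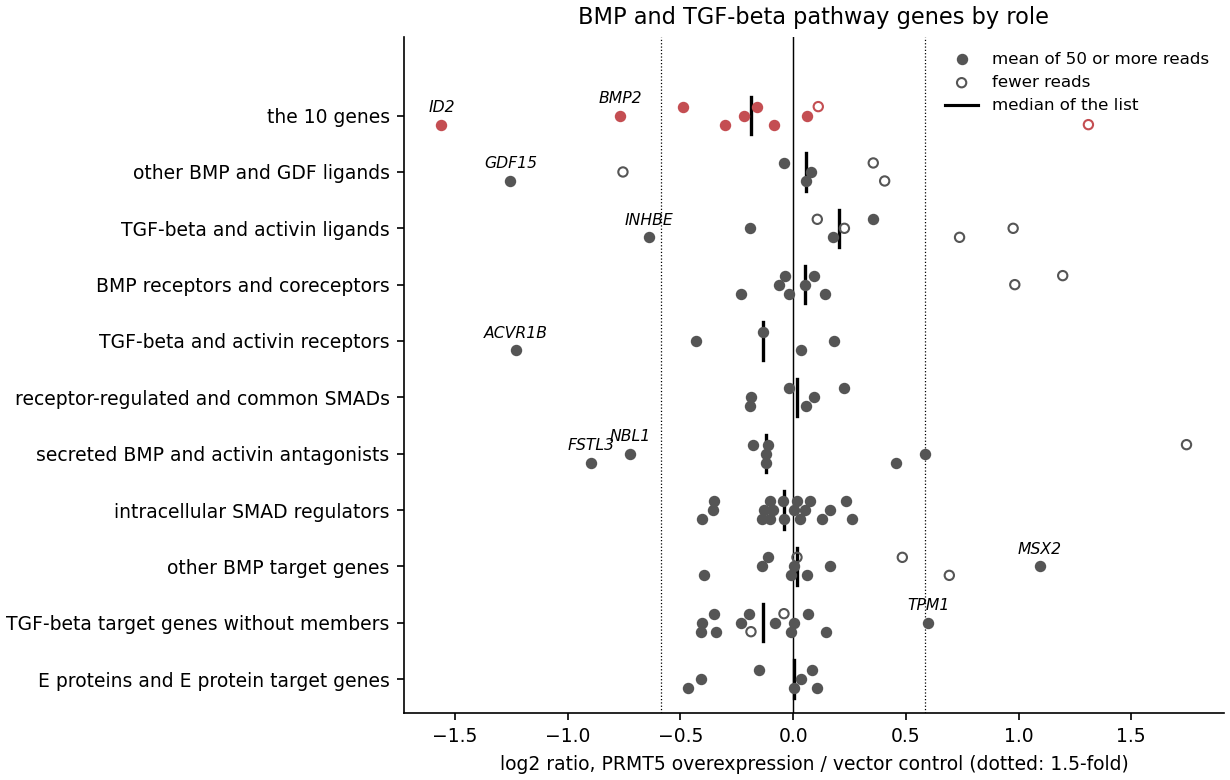
log2 ratio (PRMT5 overexpression over vector control) of the 10 genes (red) and of other BMP and TGF-beta pathway genes by role (grey), with filled points for averages of 50 reads or more, open points for fewer and a black bar at each list's median. ID2, GDF15 and ACVR1B lie farthest to the left and MSX2 farthest to the right among the filled points.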

How the data were processed

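Polyadenylated RNA of Tu212 cells was sequenced as 1 library per group. Per the submitters' processing notes the tools were HISAT2 2.1.0, StringTie 1.3.4b, CASAVA 1.8 and edgeR, in roles the notes do not state, and the build was hg38 (GRCh38). The authors deposited 1 table with the read count and the FPKM of every gene in both libraries. For 9 of the 10 genes, the length behind the deposited FPKM equalled, within 2 bases, the sum of all distinct annotated exons (GENCODE release 29), with exons that overlap counted repeatedly. That is 1.00 to 2.48 times the merged length, so FPKM was not used to compare genes.

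Counts of 1 symbol were summed. TMM factors (edgeR 4.0.16 in R 4.3.3, from genes that reached 10 reads in either library) were 1.01 and 0.990. Log2 ratios are the log2 CPM (prior count of 1) with PRMT5 overexpression minus that in the vector control. Depths differed 1.41-fold. No test was run, as each group has 1 library. Intervals cover counting error only. They treat reads as independent molecules, which reads are not, so they may be too narrow even for that error. The procedure was tested on simulated counts that held counting error only. That simulation cannot show how far replicate cultures would vary. The members and gene lists were chosen with earlier results of these data known. Genes named are the members, PRMT5, genes that share exons with a member, and list genes at least 1.5-fold apart or with the most reads; neighbours on the chromosome, AMH, BMPR1B, ENG, TGFB2, INHBB, DAND5, MSX1 and other examples were added after their values were seen. Of 175 list entries, 175 matched the table by symbol or Ensembl identifier, and 8 of 10 members matched a RefSeq promoter. Alternatives tried were other prior counts (0.1 and 5), size factors of DESeq2 1.42.0, totals alone, other floors (none and 50 reads), the highest entry per symbol, protein-coding genes, FPKM, sums with exon-sharing genes and a 1.5-fold threshold. Scripts ran in Python 3.11.15 (scipy 1.17.1, pandas 2.3.3, matplotlib 3.10.9, numpy 2.4.6).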

Additional observations from a re-analysis of the deposited data

How the results depend on the processing

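The log2 ratios of single members changed sign under 0 of 69 recalculations and stayed within their counting intervals in 68. The exception was ID2 at -1.19 with deposited FPKM and a pseudocount of 1, which pulls low values toward 0 by construction. Taking the highest entry per symbol could not change any member, as each has a single entry. Other prior counts could hardly change a sign, so these settings add little to the tally. BMP4 and BAMBI gave no value with FPKM, being under the floor of 0.5. ID2 ranged from -1.59 to -1.19 and BMP2 from -0.79 to -0.62. The member median ranged within -0.26 to -0.16. The count of members at least 2-fold lower, 1, became 2 at a threshold of 1.5-fold. The count at least 2-fold higher, 1 (BMP4), became 0 when the prior count was 5, when the floor was 50 reads, with FPKM, and among genes averaging 50 reads or more. Over all genes, the 344 lower and 516 higher numbered 227 and 267 when the prior count was 5, 2872 and 2145 when no floor was set, 118 and 136 when the floor was 50 reads, 219 and 238 among protein-coding genes, 107 and 93 with FPKM, 947 and 1255 at 1.5-fold, and 107 and 106 among genes averaging 50 reads or more. The 14 genes of the other pathway lists at 1.5-fold or more numbered 22 when no floor was set, 7 when the floor was 50 reads, 3 with FPKM and 7 among genes averaging 50 reads or more. Stricter sets hold fewer genes by construction. TMM factors from all genes and the restriction to averages of 50 reads or more were chosen after seeing the data. No paired analysis was possible because there was a single library in either group.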
